A study of Mus musculus with 40 samples.

Results

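Oxidative phosphorylation makes ATP at the inner mitochondrial membrane. Complexes I, II, III and IV form the respiratory chain, which passes electrons from NADH and succinate to oxygen and, at complexes I, III and IV, pumps protons. Complex V, the ATP synthase, uses the proton gradient to make ATP. Most subunits are encoded in the nucleus and imported, and complex II is built from nuclear-encoded subunits alone. Blood stem cells at rest are known for low mitochondrial respiration and a large share of glycolysis, and respiration is known to increase as they divide and differentiate.

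The nuclear genes of these complexes were taken by name from the 6 deposited expression tables. The symbols were those of the Nduf subunit families for complex I, Sdha to Sdhd for complex II and Uqcr for complex III. For complex IV they were Cox4 to Cox8 followed by a, b or c, and for complex V Atp5. Cox4i1 and Cox4i2 of complex IV do not match this rule and are not members. Symbols that carry the pseudogene suffix -ps were left out, and a gene had to reach 1 FPKM (fragments per kilobase of transcript per 1e6 reads) in at least 50% of the libraries of a table. This gave 81 symbols in any table out of 30365 gene entries over the series, and 72 under the same symbol in all 6 tables. Total HSCs and total MPPs each had 77 of 84 matching symbols, of which 36 belonged to complex I, 4 to complex II, 8 to complex III, 12 to complex IV and 17 to complex V. The H2B-GFP tables held 75 genes for GFP-high MPPs and 76 for each of the other populations. The symbol fixed the complex, so a few genes stand under an older assignment. Ndufa4 is now placed in complex IV, Atp5sl is now called Dmac2 and acts in complex I assembly, and Cox7a2l is known as a factor of respiratory supercomplexes.

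The HIRA chaperone deposits histone H3.3 into chromatin independently of DNA replication. RNA was sequenced from blood-forming stem cells (HSCs) and from the multipotent progenitors below them (MPPs), sorted from bone marrow of adult C57BL/6 mice, in 40 libraries that form 12 groups. In the libraries labelled HIRA KO, deletion was induced by 2 intraperitoneal doses of 20 µg poly(I:C), a double-stranded RNA. The labels name the alleles, Hira fl/fl and Mx1-Cre, for the H2B-GFP cohort alone. Mx1-Cre is an interferon-inducible Cre that is not restricted to blood cells. The control libraries are labelled WT, with no further genotype, and carry the same treatment text as the KO libraries, poly(I:C) included. In the total-cell cohort the mice were killed 1 week after the first dose and 2500 cells were sorted, with 4 KO and 4 WT libraries each of HSCs and of MPPs. In the H2B-GFP cohort the mice also carried Rosa26-M2rtTA and TetOP-H2B-GFP. Their water held 2 mg/ml doxycycline and 10 mg/ml sucrose for 6 weeks. They were killed when 15 days had passed from the final poly(I:C) dose and 17 days from the end of doxycycline. Each division dilutes H2B-GFP, which makes GFP-high the cells with few divisions and GFP-low those with more. HSCs and MPPs were each sorted into GFP-high and GFP-low cells, and each of these 4 populations had 3 KO and 3 WT libraries. The replicates are called biological in the study's design, with no link between a number and a mouse.

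Depth, recovered from the steps of the FPKM values, in units of 1e6 reads per library, was 21.4 to 29.5 in total HSCs, 18.3 to 32.5 in total MPPs and 5.82 to 9.57 in the H2B-GFP cohort. Hira itself did not separate the labels. Its mean ran from 1.11 to 2.05 FPKM in the KO groups and from 1.25 to 2.28 FPKM in the WT groups, and the exact permutation p (2-sided) was 0.571 in total HSCs and 0.457 in total MPPs, and in the H2B-GFP cohort it was 0.5 (GFP-high HSCs), 0.8 (GFP-low HSCs), 0.4 (GFP-high MPPs) and 0.3 (GFP-low MPPs). A deletion of some exons need not lower the reads over the rest of a transcript, so these values do not check the labels, and KO below means a library labelled KO. Of the cell type markers, Slamf1 averaged 6.03 FPKM in KO and 5.59 FPKM in WT total HSCs, and Flt3 averaged 34.4 FPKM in KO and 54.1 FPKM in WT total MPPs. Each is a single marker of the HSC or MPP list and does not stand for the others, which are not given here for that population.

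The subunit genes were among the most abundant transcripts of these cells. Their median level was 101 FPKM in total HSCs, at the 93.6th percentile of tested genes, and 98.2 FPKM in total MPPs, also at the 93.6th percentile. In the H2B-GFP cohort the median ranged from 80.9 FPKM in GFP-high HSCs to 96.4 FPKM in GFP-low MPPs. Levels are not compared between tables, because each was scaled by the authors on its own. Within total HSCs the highest gene was Cox8a, a small subunit of complex IV, with a mean of 775 FPKM in KO and 758 FPKM in WT libraries. Atp5l, subunit g of the ATP synthase, followed at 557 FPKM in KO and 497 FPKM in WT libraries, and Cox6b1, the common form of a complex IV subunit that faces the intermembrane space, at 529 FPKM in KO and 488 FPKM in WT libraries. The lowest was Cox7a1, the muscle and heart form of another complex IV subunit, with 0.947 FPKM in KO and 0.982 FPKM in WT libraries. Across the complexes, complex IV had the highest median level in total HSCs (222 FPKM) and complex II the lowest (83.2 FPKM).

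**Figure D1:**
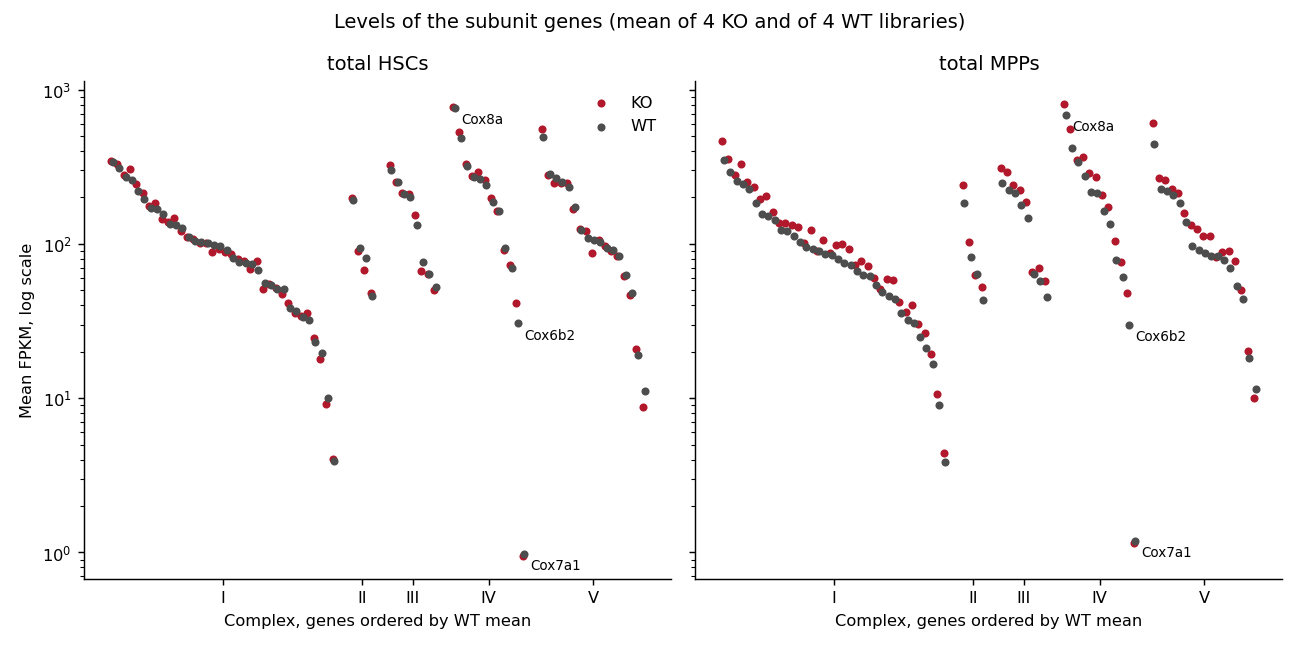
Mean FPKM of each subunit gene, on a log axis, by complex and table, with KO and WT means side by side. The genes of each complex span a wide range within a table, from 0.947 FPKM for Cox7a1 to 775 FPKM for Cox8a in KO libraries of total HSCs.

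No subunit gene passed the test between KO and WT in any table (limma on log2(FPKM + 1), threshold 0.05 after Benjamini-Hochberg adjustment across every gene tested in that table). The smallest adjusted p among them was 0.151 in total HSCs, 0.133 in total MPPs, 0.0879 in GFP-low MPPs and 0.303 to 0.666 in the other H2B-GFP populations. The same test called 17 of 13717 genes in total HSCs (0.124%), 15 of 13916 in total MPPs (0.108%), 3 of 10850 in GFP-high HSCs (0.0276%) and 34 of 10621 in GFP-low MPPs (0.32%). It called 0 of 10705 in GFP-low HSCs (0%), where 500 genes were higher and 417 lower at an unadjusted p under 0.05, and 0 of 10789 in GFP-high MPPs (0%), where 390 were higher and 375 lower. The 95% interval of a single subunit gene, not adjusted for the number of genes, reached a median of 0.27 on the log2 scale to either side of its difference in total HSCs and 0.35 in total MPPs. Single-gene differences below that size were mostly not detectable with these libraries. Larger ones also failed after adjustment, up to 0.42 in total HSCs and 0.68 in total MPPs.

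The populations differed in how many subunit genes lay above WT. The median log2 difference was 0.28 in total MPPs, with 73 of 77 genes above 0, and 0.15 in GFP-low MPPs, with 69 of 76 above 0. It was 0.07 in GFP-low HSCs, with 60 of 76 above 0, and 0.04 in total HSCs, with 51 of 77 above 0, the last turning to -0.03 when all libraries were rescaled to the same FPKM total. It was -0.08 in GFP-high HSCs, with 12 of 76 above 0, and -0.00 in GFP-high MPPs, with 37 of 75 above 0, and that rescaling gave 0.00 in GFP-high HSCs and 0.10 in GFP-high MPPs. Over all tested genes the median lay between -0.00 and 0.00 in every table, and the share above 0 was 49.8% in total HSCs, 50.4% in total MPPs, 49.6% and 49.2% in HSCs sorted GFP-high and GFP-low, and 51% and 50.4% in MPPs sorted GFP-high and GFP-low. The rescaling moved the median of all tested genes to -0.06 in total HSCs and total MPPs, 0.06 (GFP-high HSCs), -0.04 (GFP-low HSCs), 0.09 (GFP-high MPPs) and 0.05 (GFP-low MPPs) in the others. In these bulk libraries, more cells of a type with high levels and more RNA per cell cannot be told apart.

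**Figure D2:**
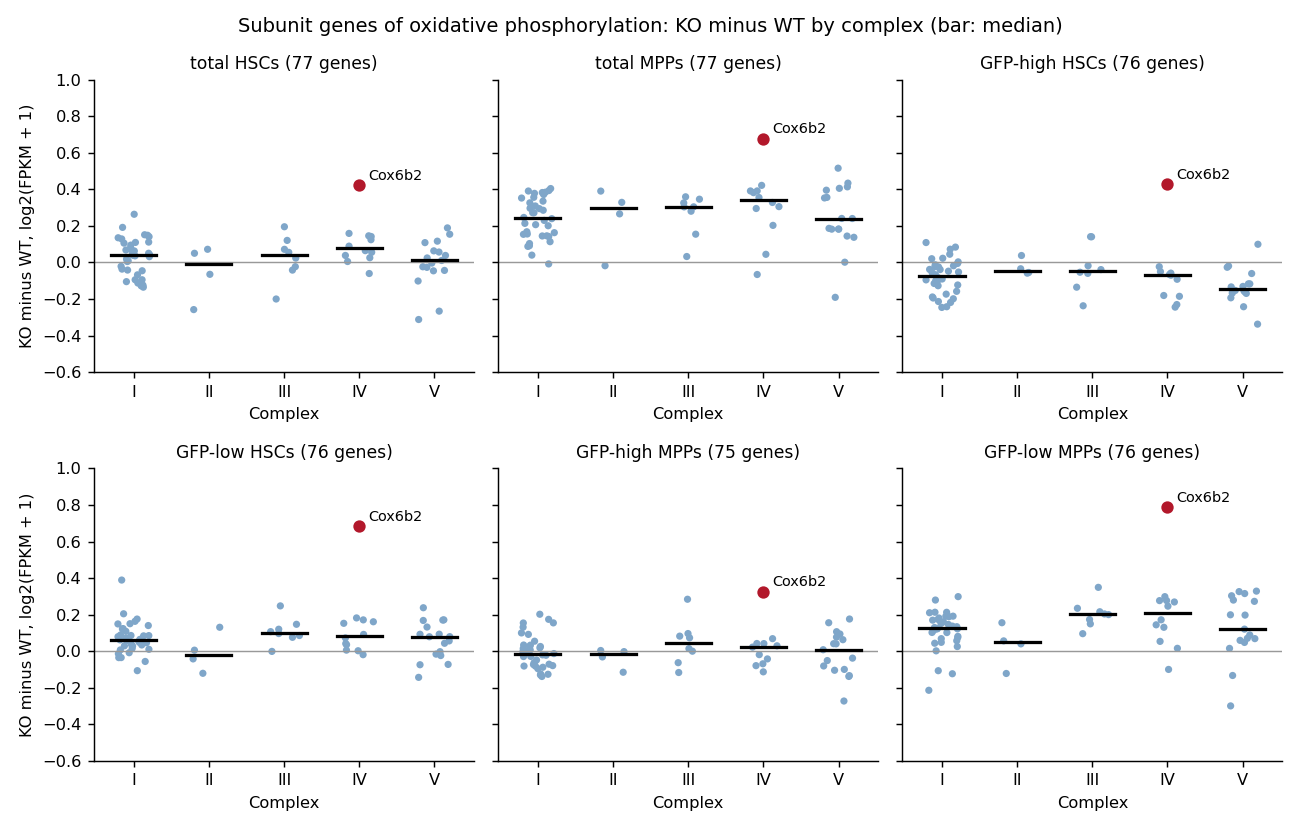
Log2 difference of KO minus WT (limma on log2(FPKM + 1)) for each subunit gene, grouped by complex in each of the 6 tables, with the median of each complex marked. In total MPPs 73 of 77 genes lie above 0 and in GFP-high HSCs 12 of 76 do. The GFP-high HSC median of -0.08 becomes 0.00 when libraries are rescaled to the same FPKM total, which also raises the median of all tested genes. No gene passed the test.

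In total MPPs every complex had a positive median. It was 0.24 for complex I (35 of 36 genes above 0), 0.30 for complex II (3 of 4), 0.30 for complex III (8 of 8), 0.34 for complex IV (11 of 12) and 0.24 for complex V (16 of 17). At an unadjusted p under 0.05, 17 of the 77 genes were higher in KO and 0 lower, against 8.77% of all tested genes higher and 7.79% lower. The KO and WT libraries did not overlap for 8 of the 77, all higher in KO, against 5.08% of all tested genes higher and 4.84% lower. Those 8 were Ndufa9, Sdhb, Sdhc, Sdhd, Uqcrc2, Uqcrfs1, Atp5b and Atp5o.

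Ndufa9, an accessory subunit of complex I near the junction of its arms, had the smallest p among the subunit genes of total MPPs. It had 56.0, 60.3, 64.9 and 57.3 FPKM in KO libraries, against 45.5, 44.7, 48.7 and 46.4 FPKM in WT libraries. The groups did not overlap, and the log2 difference was 0.36 (SE 0.10, limma adjusted p = 0.133). Ndufa12, an accessory subunit that is among the last to join the complex, had 121, 139, 131 and 98.1 FPKM in KO libraries and 104, 79.7, 103 and 81.8 FPKM in WT libraries. KO replicate 4 fell inside the range of the WT libraries here, and the log2 difference was 0.40 (limma adjusted p = 0.216). Ndufa7, another accessory subunit, lay closest to WT in complex I, with 99.1, 108, 96.0 and 58.7 FPKM in KO libraries and 94.2, 81.5, 106 and 76.3 FPKM in WT libraries. Its groups overlapped fully, with a log2 difference of -0.01.

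Succinate dehydrogenase, complex II, also belongs to the citric acid cycle. Of its 4 genes in total MPPs, the iron-sulfur subunit Sdhb had 92.5, 105, 110 and 106 FPKM in KO libraries, against 88.7, 72.4, 86.7 and 81.1 FPKM in WT libraries. The membrane anchor Sdhc had 48.0, 59.7, 51.2 and 51.1 FPKM in KO libraries, against 43.0, 47.7, 45.6 and 37.9 FPKM in WT libraries. The other anchor, Sdhd, had 228, 258, 255 and 216 FPKM in KO libraries, against 173, 192, 209 and 157 FPKM in WT libraries. All 3 had every KO library above every WT library, with log2 differences of 0.33, 0.27 and 0.39 (limma adjusted p = 0.195, 0.286 and 0.173 in that order). Sdha, the flavoprotein that oxidises succinate, stood apart from them: it had 63.8, 58.4, 61.4 and 69.6 FPKM in KO libraries and 70.7, 60.7, 62.0 and 63.0 FPKM in WT libraries, a log2 difference of -0.02.

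In complex III of total MPPs, Uqcrfs1, the Rieske iron-sulfur protein that hands electrons to cytochrome c1, had 195, 185, 208 and 166 FPKM in KO libraries, against 138, 160, 155 and 138 FPKM in WT libraries. Uqcrc2, a core subunit, had 70.8, 62.2, 66.5 and 79.8 FPKM in KO libraries, against 60.6, 55.2, 55.8 and 56.8 FPKM in WT libraries. Neither gene's groups overlapped, and the log2 differences were 0.35 and 0.28 (limma adjusted p = 0.188 and 0.245). The other core subunit, Uqcrc1, had 54.9, 56.5, 59.7 and 92.5 FPKM in KO libraries and 59.3, 48.7, 70.1 and 77.2 FPKM in WT libraries. Its log2 difference of 0.03 rested on KO replicate 4, without which it was -0.14, and it was -0.04 after rescaling to the same FPKM total.

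The ATP synthase genes of total MPPs included Atp5b, the catalytic beta subunit, with 239, 254, 257 and 293 FPKM in KO libraries, against 234, 187, 226 and 235 FPKM in WT libraries. Atp5o, the subunit that ties the catalytic head to the peripheral stalk, had 81.8, 99.6, 99.3 and 77.7 FPKM in KO libraries, against 74.7, 65.3, 77.0 and 61.6 FPKM in WT libraries. Both had all KO libraries above all WT libraries, by a narrow gap, with log2 differences of 0.24 and 0.36 (limma adjusted p = 0.354 and 0.216). Atp5g1, a gene for the rotating c subunit, had the second-highest log2 difference of the 77 genes, 0.52 (limma adjusted p = 0.228), from 77.0, 97.2, 80.0 and 54.4 FPKM in KO libraries and 60.4, 45.0, 65.9 and 42.5 FPKM in WT libraries. Its KO replicate 4 lay below 2 of the WT libraries. Atp5sl, the assembly factor listed with complex V by its old symbol, had the lowest log2 difference in the table at -0.19, with 7.47, 10.2, 9.74 and 12.5 FPKM in KO libraries and 9.77, 11.4, 11.3 and 13.1 FPKM in WT libraries.

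The libraries of total MPPs were not uniform within a group. The median deviation of the 77 genes from their own means, on the log2 scale, was 0.13, 0.33, 0.30 and -0.18 in KO replicates 1 to 4, and -0.02, -0.21, 0.02 and -0.34 in WT replicates 1 to 4. KO replicate 4 lay below WT replicates 1 and 3, so the groups overlapped. Without KO replicate 4 the median difference was 0.37, and over all libraries left out in turn it ranged from 0.20 to 0.37. Without KO replicate 4, 1 of the 77 subunit genes passed the test, Ndufb3 of complex I (limma adjusted p = 0.0453), among 212 called of all 13916 tested genes. In GFP-low MPPs the median deviation was 0.08, -0.10 and 0.28 in KO libraries and -0.01, -0.05 and -0.14 in WT libraries, where KO replicate 2 lay within the WT range.

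**Figure D3:**
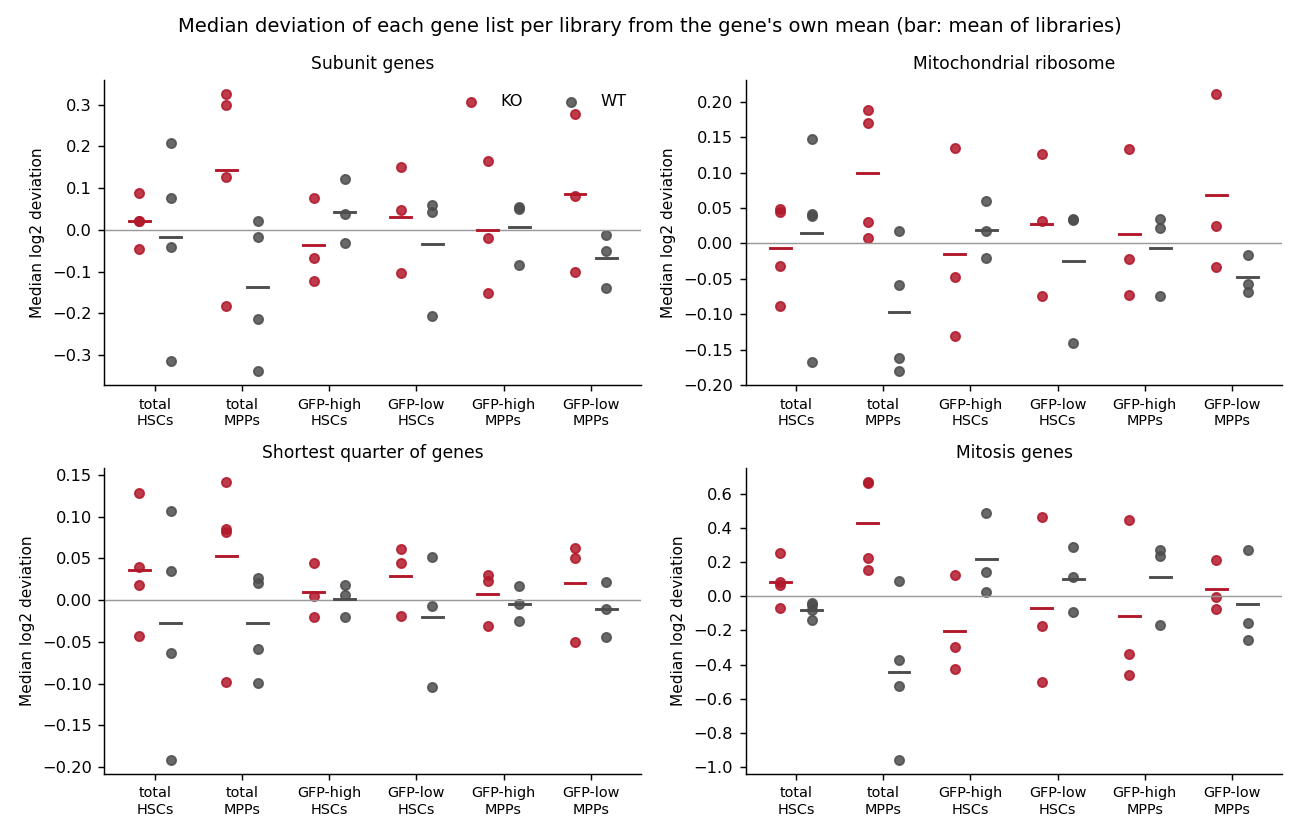
Median log2 deviation of the subunit genes from their own mean in the table, for each library, with KO left of WT in each of the 6 populations. In total MPPs 3 KO libraries lie above the WT libraries and KO replicate 4, at -0.18, lies among them.

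Other values moved with the subunit genes in total MPPs. Genes of mitosis were above WT for 18 of 18 tested, with a median log2 difference of 0.78 and a summed level of 284 to 435 FPKM in KO and 124 to 263 FPKM in WT libraries, and none passed the test (14 higher at an unadjusted p under 0.05, against 8.77% of all tested genes higher and 7.79% lower). Erythroid markers were above WT for 6 of 6, with a median of 1.09 and a sum of 397 to 4203 FPKM in KO and 159 to 2339 FPKM in WT libraries. Mast cell and basophil markers were above WT for 4 of 4 tested, with a median of 1.79 and a sum of 22.5 to 72.6 FPKM in KO and 7.26 to 15.7 FPKM in WT libraries, and of these Cpa3, a mast cell protease, passed the test (log2 difference 1.40, limma adjusted p = 0.0161). HSC markers were above WT for 0 of 7 tested, with a median of -0.31 and a sum of 254 to 305 FPKM in KO and 342 to 414 FPKM in WT libraries. The fifth mast cell marker, Ms4a2, averaged 0.85 FPKM in KO and 0.267 FPKM in WT libraries, and the eighth HSC marker, Slamf1, 0.388 FPKM in KO and 0.2 FPKM in WT libraries. Short transcripts also lay above WT: the 3479 genes in the lowest quartile of counted length had a median of 0.07, and their median deviation was 0.08, 0.14, 0.08 and -0.10 in KO replicates 1 to 4 and 0.03, -0.06, 0.02 and -0.10 in WT replicates 1 to 4. The subunit genes are short, at a median 29.1th percentile of counted length in that table. The part of these differences in the values of the subunit genes was not tested.

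GFP-low MPPs had the next-highest median. It was 0.13 for complex I (32 of 35 above 0), 0.05 for complex II (3 of 4), 0.20 for complex III (8 of 8), 0.21 for complex IV (11 of 12) and 0.12 for complex V (15 of 17). The unadjusted p was under 0.05 for 6 of 76 genes higher in KO and 0 lower, against 6.12% of all tested genes higher and 6.16% lower. The groups did not overlap for 9 genes higher and 1 lower in KO, against 9.73% of all tested genes higher and 9.33% lower. Atp5b had 418, 400 and 490 FPKM in KO libraries, against 362, 342 and 344 FPKM in WT libraries. Uqcrfs1 had 154, 134 and 196 FPKM in KO libraries, against 125, 129 and 120 FPKM in WT libraries. Both stood apart without overlap, with log2 differences of 0.32 and 0.35 (limma adjusted p = 0.303 and 0.364). The gene that was lower without overlap was Ndufb10, an accessory subunit of complex I, with 74.8, 70.1 and 72.2 FPKM in KO libraries, against 89.5, 83.7 and 79.3 FPKM in WT libraries (log2 difference -0.21, limma adjusted p = 0.423). Of the markers, 5 of 6 erythroid genes were above WT in this population (sum 302 to 873 FPKM in KO and 242 to 555 FPKM in WT libraries), and Epor, the erythropoietin receptor, passed the test (log2 difference 1.32, limma adjusted p = 0.0228). Their part in the values of the subunit genes was not tested.

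In GFP-high MPPs the complexes had medians from -0.02 for complex II to 0.04 for complex III. By the unadjusted p, 1 of 75 genes was higher in KO at under 0.05 and 0 lower, against 3.61% of all tested genes higher and 3.48% lower. The groups did not overlap for 3 genes higher and 2 lower, against 6.74% of all tested genes higher and 6.59% lower. Atp5g2, another gene for the c subunit, had 37.3, 31.2 and 29.3 FPKM in KO libraries and 39.7, 35.1 and 43.8 FPKM in WT libraries, with a log2 difference of -0.27 (limma adjusted p = 0.76). Its groups overlapped in KO replicate 1. Uqcrfs1 had 109, 109 and 154 FPKM in KO libraries, against 92.1, 107 and 102 FPKM in WT libraries, and did not overlap (log2 difference 0.28, limma adjusted p = 0.782).

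In total HSCs the medians were 0.04 for complex I, -0.01 for complex II, 0.04 for complex III, 0.08 for complex IV and 0.01 for complex V. Rescaling to the same FPKM total turned the median of all 77 genes to -0.03 and also lowered the median of all tested genes. At an unadjusted p under 0.05, 2 of 77 genes were higher in KO and 3 lower, against 4.87% of all tested genes higher and 5.21% lower. The groups did not overlap for 1 gene higher and 3 lower, against 2.81% of all tested genes higher and 3.39% lower. Sdha had 67.2, 69.4, 73.5 and 60.7 FPKM in KO libraries, against 82.7, 83.8, 79.7 and 77.7 FPKM in WT libraries. Atp5sl had 8.92, 8.38, 9.14 and 8.57 FPKM in KO libraries, against 9.22, 12.2, 10.6 and 12.7 FPKM in WT libraries. Both were lower in KO without overlap, with log2 differences of -0.26 and -0.31 (limma adjusted p = 0.337 and 0.361). The third gene lower without overlap was Ndufs1, the largest subunit of complex I. WT replicate 2 was the lowest library of this table, with a median deviation of -0.31 against -0.05 to 0.09 in the KO libraries and -0.04 to 0.21 in the other WT libraries.

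In GFP-high HSCs the subunit genes lay slightly below WT, with medians of -0.08 for complex I (7 of 36 above 0), -0.04 for complex II (1 of 4), -0.05 for complex III (2 of 8), -0.07 for complex IV (1 of 11) and -0.14 for complex V (1 of 17). Rescaling to the same FPKM total gave a median of 0.00 for all 76 genes and also raised the median of all tested genes. Unadjusted, p was under 0.05 for 1 of 76 genes higher in KO and 3 lower, against 5.64% of all tested genes higher and 4.72% lower. The groups did not overlap for 2 genes higher and 10 lower, against 8.61% of all tested genes higher and 7.47% lower. Atp5k, subunit e at the dimer interface of the ATP synthase, had 68.2, 74.8 and 93.0 FPKM in KO libraries, against 106, 98.1 and 93.0 FPKM in WT libraries. Cox7a2, the common form of that complex IV subunit, had 167, 153 and 192 FPKM in KO libraries, against 206, 201 and 197 FPKM in WT libraries. The Cox7a2 groups did not overlap and the Atp5k groups met at 93.0 FPKM, with log2 differences of -0.24 and -0.34 (limma adjusted p = 0.463 and 0.407). Genes of mitosis were above WT for 0 of 20 in this population, with a median of -0.43 and a sum of 168 to 278 FPKM in KO and 241 to 347 FPKM in WT libraries, and none passed the test (9 lower at an unadjusted p under 0.05, against 4.72% of all tested genes). Elsewhere they were above WT for 18 of 20 in total HSCs, 3 of 20 in GFP-low HSCs, 3 of 19 in GFP-high MPPs and 14 of 20 in GFP-low MPPs. Their part in the values of the subunit genes was not tested.

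In GFP-low HSCs the medians were 0.06 for complex I (29 of 35 above 0), -0.02 for complex II (2 of 4), 0.10 for complex III (7 of 8), 0.08 for complex IV (11 of 12) and 0.08 for complex V (11 of 17). Before adjustment, 2 of 76 genes were higher in KO at p under 0.05 and 0 lower, against 4.67% of all tested genes higher and 3.9% lower. The groups did not overlap for 3 genes, all higher in KO, against 7.67% of all tested genes higher and 6.42% lower. Ndufa1, a small accessory subunit needed for complex I assembly, had 188, 232 and 253 FPKM in KO libraries, against 188, 176 and 148 FPKM in WT libraries (log2 difference 0.39, limma adjusted p = 0.54). Its groups met near 188 FPKM without crossing.

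Cox6b2 had the smallest p among the subunit genes in 5 of the 6 tables, all but total MPPs, where Ndufa9 had it. It encodes a form of the complex IV subunit Cox6b that is known from testis and sperm, while Cox6b1 is the form of other tissues. The gene lies on chromosome 7, from 4751792 to 4753094 on the minus strand (GRCm38), and was measured by at least 566 reads per library in total MPPs and at least 727 in total HSCs. The promoters of the pair are shown because the KO and WT libraries stood apart for Cox6b2 in most tables and overlapped for Cox6b1 in total HSCs, and that of Ndufa9 because it led total MPPs. Each runs from 250 bases before to 50 bases after the start of the RefSeq gene (GRCm38.p6) and is read 5′ to 3′ along the gene. The Cox6b2 window is chr7:4753045-4753344 (minus strand), that of Cox6b1 chr7:30626065-30626364 (minus strand) and that of Ndufa9 chr6:126849095-126849394 (minus strand). Capitals mark matches to 3 motifs of factors known for respiratory gene promoters: GCGCATGCG (NRF1), CCGGAAG (the ETS family, which includes GABP) and AAGATGGC (YY1), each searched on both strands.
Cox6b2: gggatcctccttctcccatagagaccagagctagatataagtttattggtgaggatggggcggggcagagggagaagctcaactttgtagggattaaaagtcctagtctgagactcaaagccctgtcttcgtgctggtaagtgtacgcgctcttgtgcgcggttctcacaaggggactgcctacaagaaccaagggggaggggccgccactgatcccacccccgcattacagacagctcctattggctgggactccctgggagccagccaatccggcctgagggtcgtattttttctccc
Cox6b1: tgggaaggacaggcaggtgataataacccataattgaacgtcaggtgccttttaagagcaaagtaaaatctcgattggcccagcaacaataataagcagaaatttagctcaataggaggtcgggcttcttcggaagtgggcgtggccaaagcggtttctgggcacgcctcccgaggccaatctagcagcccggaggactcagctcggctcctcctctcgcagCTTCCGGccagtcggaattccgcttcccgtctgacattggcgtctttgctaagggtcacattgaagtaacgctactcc
Ndufa9: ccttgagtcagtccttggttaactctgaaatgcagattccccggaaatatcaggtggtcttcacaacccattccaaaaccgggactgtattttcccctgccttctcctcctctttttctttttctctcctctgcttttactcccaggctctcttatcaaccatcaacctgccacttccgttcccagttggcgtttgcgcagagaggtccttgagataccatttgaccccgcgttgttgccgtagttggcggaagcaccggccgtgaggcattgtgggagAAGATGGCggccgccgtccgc
The Cox6b2 window held none of the 3 motifs, that of Cox6b1 held 1 ETS match and that of Ndufa9 held 1 YY1 match. RefSeq windows were found for 69 of the 81 symbols, which are 68 genes. Of these 68, 8 (11.8%) had the NRF1 motif, against 4.48% of the 8308 genes tested in total HSCs that matched and 1.95% of all 27025 genes. The ETS motif was in 17 (25%), against 22.1% of the tested and 9.93% of all genes. The YY1 motif was in 11 (16.2%), against 5.75% of the tested and 3.19% of all genes. Any of them was in 31 (45.6%), against 29.6% of the tested and 14.1% of all genes. A match describes the letters of the window and is no evidence of binding.

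In total HSCs, Cox6b2 had 36.5, 43.2, 41.0 and 44.8 FPKM in KO libraries, against 31.7, 27.0, 32.6 and 30.9 FPKM in WT libraries. In total MPPs it had 49.1, 59.6, 45.6 and 37.3 FPKM in KO libraries, against 22.4, 26.7, 42.0 and 28.7 FPKM in WT libraries. The groups were apart in total HSCs, and overlapped in total MPPs through KO replicate 4 and WT replicate 3. The log2 differences were 0.42 (SE 0.10, limma adjusted p = 0.151) and 0.68 (SE 0.19, limma adjusted p = 0.138).

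In GFP-high HSCs, Cox6b2 had 42.0, 49.2 and 46.4 FPKM in KO libraries, against 31.1, 39.1 and 31.6 FPKM in WT libraries. In GFP-low HSCs it had 50.8, 65.3 and 66.6 FPKM in KO libraries, against 36.2, 46.5 and 30.6 FPKM in WT libraries. Neither pair of groups overlapped, with log2 differences of 0.43 and 0.68 (limma adjusted p = 0.303 and 0.346). In GFP-high MPPs it had 36.2, 33.5 and 41.8 FPKM in KO libraries, against 26.6, 30.5 and 31.2 FPKM in WT libraries. In GFP-low MPPs it had 54.1, 77.9 and 71.5 FPKM in KO libraries, against 38.2, 41.7 and 35.4 FPKM in WT libraries. Again all KO libraries lay above all WT libraries, with log2 differences of 0.33 and 0.79 (limma adjusted p = 0.666 and 0.0879). Without KO replicate 1 the difference in GFP-low MPPs passed the test (0.94, limma adjusted p = 0.0288), and no other of the 76 subunit genes did. With all libraries the test called 34 of 10621 genes there (0.32%). The share of all genes called without KO replicate 1 is not given here.

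Every KO library was thus above every WT library for Cox6b2 in 5 of the 6 tables. Of 9338 genes tested in all tables, 16 were higher in KO without overlap in 5 or more (0.171%), and Cox6b2 was the 1 subunit gene of 72 among them. The tables are not independent of each other, since libraries with the same number in GFP-high and GFP-low cells deviated together. A fit chosen after these values were seen averaged same-numbered libraries of a genotype over the populations of a cohort, though no label links a number to a mouse. Deviations of same-numbered total HSCs and MPPs correlated at 0.02, 0.18, 0.04 and -0.22 in KO replicates 1 to 4, and at 0.34, 0.08, 0.18 and 0.19 in WT. In the total-cell cohort the averaged KO effect was 0.55 for Cox6b2 (95% interval 0.31 to 0.80, limma adjusted p = 0.0447), where 151 of 13166 genes were called (1.15%). That call was lost with a pseudocount of 0.1 (adjusted p = 0.0502), after rescaling (adjusted p = 0.0648) and on leaving out any averaged replicate but WT replicate 3, with adjusted p between 0.055 and 0.124. In the H2B-GFP cohort the same average was 0.56 (limma adjusted p = 0.0986), where 24 of 10166 genes were called (0.236%).

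Cox6b1 did not follow that pattern. It had 504, 563, 528 and 521 FPKM in KO and 611, 346, 534 and 460 FPKM in WT libraries of total HSCs, with full overlap, and its log2 difference lay between -0.07 in GFP-high HSCs and 0.38 in total MPPs. Cox6b2 made up 7.25% ± 0.487 of the summed Cox6b1 and Cox6b2 FPKM in KO and 6.06% ± 0.97 in WT total HSCs (SD, n = 4 each, exact permutation p = 0.114), and 8.16% ± 1.26 in KO and 6.78% ± 1.76 in WT total MPPs (SD, n = 4 each, exact permutation p = 0.171). The share was 9.47% in KO and 6.86% in WT GFP-high HSCs, 9.75% in KO and 6.99% in WT GFP-low HSCs, 7.70% in KO and 6.38% in WT GFP-high MPPs, and 10.7% in KO and 7.48% in WT GFP-low MPPs. In those 4 populations the shares of KO and WT libraries did not overlap, and the exact permutation p of each was 0.1, the smallest that 3 against 3 libraries allow. Over the 48 shares tested, adjusted p was 0.499 to 0.565 for all 6. Of the genes next to Cox6b2, Fam71e2, 132 bases away, averaged 0.00335 FPKM in KO and 0.0113 FPKM in WT total HSCs. Suv420h2 (also named Kmt5c, a histone H4 lysine methyltransferase), 4278 bases away, averaged 12.4 FPKM in KO and 12.5 FPKM in WT total HSCs, with log2 differences from -0.17 in total MPPs to 0.30 in GFP-high HSCs and adjusted p of at least 0.515 in every table.

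**Figure D4:**
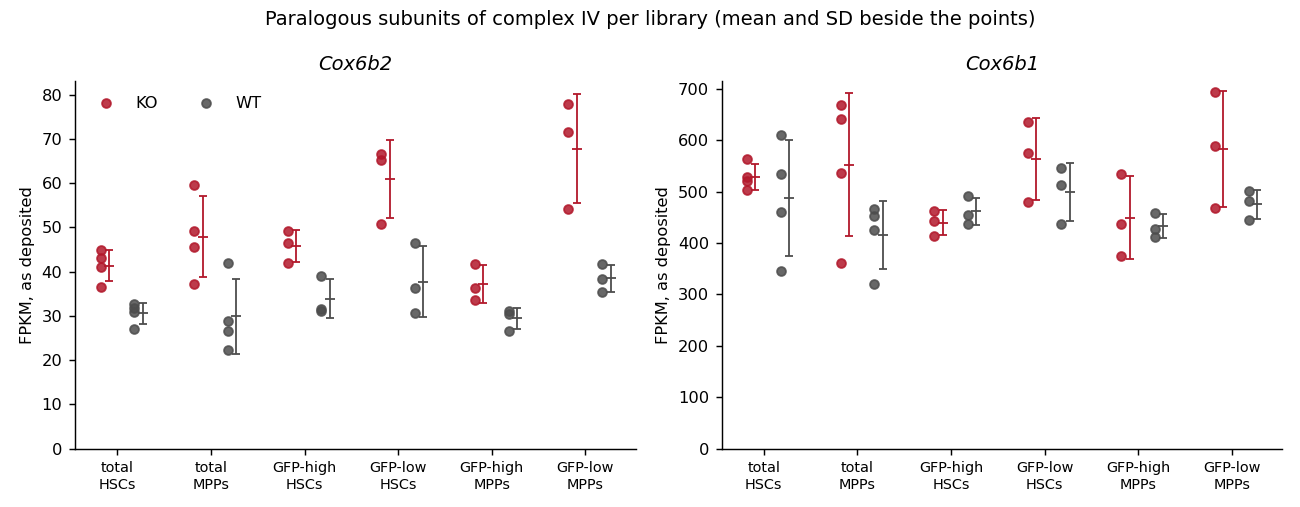
FPKM of Cox6b2 and Cox6b1 in each library, KO left of WT, in the 6 populations. Cox6b2 points of KO libraries lie above those of WT libraries in every population but total MPPs, where KO replicate 4 (37.3 FPKM) lies below WT replicate 3 (42.0 FPKM), while the Cox6b1 groups overlap in total HSCs.

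Across the tables, subunit genes kept a positive direction about as often as all tested genes did. Of the 72 genes present in all 6, 5 had a positive log2 difference in every table (Cox6b2, Ndufa12, Ndufa9, Ndufb4 and Uqcrfs1), against 6.47% of 9338 genes, and 1 had a negative one in every table (Ndufa7), against 8.01%. Uqcrfs1 had log2 differences of 0.20 in total HSCs, 0.35 in total MPPs, 0.14 and 0.25 in GFP-high and GFP-low HSCs and 0.28 and 0.35 in GFP-high and GFP-low MPPs, and its KO libraries lay above all WT libraries in total MPPs, GFP-high MPPs and GFP-low MPPs. Averaged over the total-cell cohort, the Uqcrfs1 difference was 0.27 (limma adjusted p = 0.118), and over the H2B-GFP cohort 0.26 (limma adjusted p = 0.425). Ndufa9, apart in total MPPs, had log2 differences of 0.01 in total HSCs and 0.02 to 0.11 in the H2B-GFP cohort. Sdha lay below WT in 5 of the tables and at 0.00 in GFP-high MPPs. Without overlap in 2 or more tables, 4 of the 72 genes were higher in KO (Atp5b, Atp5o, Cox6b2 and Uqcrfs1), against 8.19% of 9338 genes, and 1 was lower (Ndufb2), against 7.55%.

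The most abundant gene of each complex in total HSCs was followed through all 6 tables. Ndufb9 of complex I had log2 differences of 0.04 in total HSCs, 0.27 in total MPPs, -0.09 and 0.05 in GFP-high and GFP-low HSCs, and -0.07 and 0.13 in GFP-high and GFP-low MPPs. Sdhd of complex II had 0.05, 0.39, 0.04, 0.01, -0.03 and 0.06 in that order of tables. Uqcrb of complex III, which helps hold the ubiquinone site, had 0.12, 0.30, -0.14, 0.08, 0.08 and 0.22. Cox8a of complex IV had 0.06, 0.20, -0.02, 0.15, -0.11 and 0.02. Atp5l of complex V had 0.19, 0.41, -0.13, 0.17, -0.10 and 0.06. Each of them was highest in total MPPs among its 6 differences, and KO and WT libraries overlapped for all of them in all tables, except for Sdhd in total MPPs. The order of levels was not the same in the H2B-GFP tables: in GFP-low HSCs Atp5l averaged 36.2 FPKM in KO and 32.1 FPKM in WT libraries, below Atp5b with 386 FPKM in KO and 341 FPKM in WT libraries, and Uqcrb and Ndufb9 also had a more abundant gene in their complex there.

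Isoforms that differ between tissues were compared as shares of their set, where the size of the libraries cancels. The total-cell and H2B-GFP tables use different gene annotations, so shares are compared between KO and WT within a table only. Cox6a2, the heart and muscle form of Cox6a, stayed under the 1 FPKM threshold for membership in all tables. In total MPPs it averaged 2.81 FPKM in KO and 0.462 FPKM in WT libraries, and was 0.748% ± 0.426 of the Cox6a1 and Cox6a2 sum in KO and 0.17% ± 0.0715 in WT libraries (SD, n = 4 each). The shares did not overlap, and the exact permutation p was 0.0286, the smallest that 4 against 4 allow (adjusted p = 0.499 over 48 shares). Of the 3 genes that encode the same mature c subunit, Atp5g2 held 53.1% ± 2.08 in KO and 57.6% ± 1.73 in WT total MPPs, also without overlap (SD, n = 4 each, exact permutation p = 0.0286, adjusted p = 0.499). Its libraries overlapped in the other 5 populations, where the share was higher in KO in total HSCs (61.0% in KO and 59.9% in WT) and GFP-high HSCs (28.4% in KO and 26.4% in WT) and lower in the other 3. Atp5g1 held 19.3% in KO and 16.6% in WT total MPPs, 19.9% in KO and 17.1% in WT GFP-low HSCs, and 21.8% in KO and 17.5% in WT GFP-low MPPs, and in both GFP-low populations the shares did not overlap (exact permutation p = 0.1 each, adjusted p = 0.499 each). It held 15.3% in KO and 15.95% in WT total HSCs, 17.7% in KO and 18.2% in WT GFP-high HSCs, and 17.5% in KO and 16.7% in WT GFP-high MPPs, all with overlap. Cox4i2, the oxygen-sensitive form of Cox4, made up 1.62% of its set in KO and 1.06% in WT total HSCs and 0.504% in KO and 0.862% in WT total MPPs, with overlapping libraries. Cox8b and Ndufa4l2 were under the threshold in every table that held them.

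Genes of related roles that the name rule does not reach were read beside the subunits. Cycs, cytochrome c, which carries electrons between complexes III and IV, averaged 95.4 FPKM in KO and 70.0 FPKM in WT total MPPs (log2 difference 0.47, limma adjusted p = 0.272). Cyc1, cytochrome c1 of complex III, averaged 163 FPKM in KO and 152 FPKM in WT total MPPs (0.12, limma adjusted p = 0.71). Atpif1, the inhibitor that blocks ATP synthase running in reverse, averaged 186 FPKM in KO and 121 FPKM in WT total MPPs (0.59, limma adjusted p = 0.152). It was also 191 FPKM in KO and 151 FPKM in WT total HSCs (0.35, limma adjusted p = 0.376) and 314 FPKM in KO and 241 FPKM in WT GFP-low MPPs (0.36, limma adjusted p = 0.346).

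The rest of the pathway gave no gene past the test in any table, in lists of assembly factors, citric acid cycle enzymes, mitochondrial DNA expression, regulators of respiration, mitochondrial import and the mitochondrial ribosome. In total MPPs the mitochondrial ribosome had 66 of 76 genes above WT, with a median of 0.20 (15 at an unadjusted p under 0.05, all higher, against 8.77% of all tested genes higher and 7.79% lower). Import had 23 of 26 above WT with a median of 0.23, and the citric acid cycle 12 of 13 with a median of 0.20. Assembly factors had 30 of 44 above WT with a median of 0.09. Mitochondrial DNA expression had 7 of 13 above WT with a median of 0.01, and the regulators, which include the PGC-1 and NRF families, 3 of 7 with a median of -0.02. The 13 subunits encoded in mitochondrial DNA, present only in the tables of total cells, were above WT for 13 of 13 in total MPPs with a median of 0.18, and for 13 of 13 in total HSCs with a median of 0.22, with overlapping libraries for all of them. In GFP-low MPPs the mitochondrial ribosome had 63 of 77 above WT with a median of 0.11, import 24 of 26 with a median of 0.18 and the citric acid cycle 13 of 13 with a median of 0.16. The other populations did not share that direction throughout. In GFP-high HSCs the ribosome had 32 of 77 above WT (median -0.03), import 13 of 26 (-0.00) and the citric acid cycle 7 of 13 (0.03). In total HSCs they had 30 of 76 (-0.04), 14 of 26 (0.01) and 3 of 13 (-0.11) in the same order, in GFP-low HSCs 49 of 77 (0.05), 20 of 26 (0.03) and 8 of 13 (0.01), and in GFP-high MPPs 44 of 77 (0.01), 16 of 26 (0.01) and 10 of 13 (0.06). In GFP-high HSCs 3 assembly factors, 3 of 26 import genes and 2 of 77 ribosome genes were lower at an unadjusted p under 0.05, against 4.72% of all tested genes. In the same order 0, 1 and 2 were higher, against 5.64%.

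Whether the KO effect differed between populations was tested in a limma fit with an interaction term. The fit treated libraries of different populations as independent. Same-numbered H2B-GFP libraries of a genotype mostly deviated together, so its p values leave out that link. No subunit gene passed in any of the 5 differences, and the test called 1 of 13166 genes (0.0076%) for total MPPs minus total HSCs and 0 genes (0%) in the other 4. The median difference of the effects was 0.23 for total MPPs minus total HSCs, with 75 of 77 subunit genes above 0, against 50.5% of all tested genes. At an unadjusted p under 0.05, 9 of those genes were above 0 and 0 below, against 4.44% of all tested genes above 0, and Ndufv2, of the NADH-oxidising module of complex I, had the smallest adjusted p (0.39 on the log2 scale, limma adjusted p = 0.554). It was 0.16 for GFP-low minus GFP-high HSCs (66 of 75 above 0) and 0.15 for GFP-low minus GFP-high MPPs (69 of 75). For GFP-high MPPs minus GFP-high HSCs it was 0.08 (59 of 75), and for GFP-low MPPs minus GFP-low HSCs 0.05 (58 of 76). At an unadjusted p under 0.05 the number of subunit genes above 0 was 1, 1, 0 and 0 in those 4 differences, against 1.74%, 1.32%, 1.29% and 2.39% of all tested genes, and 0 were below 0. Cox6b2 was the 1 in GFP-low minus GFP-high MPPs, with a difference of 0.46 (limma adjusted p = 0.999).

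The threshold and the annotation decided a few memberships. Just inside, Cox7a1 reached 1 FPKM in 6 of 8 libraries of total HSCs and Ndufb4c in 3 of 6 of GFP-high HSCs. Just outside, Cox6a2 reached it in 3 of 8 libraries of total MPPs, Cox7a1 in 2 of 6 of GFP-high HSCs and Ndufb4c in 2 of 6 of GFP-low HSCs. Atp5s, Atp5sl and Ndufs5 counted in the total-cell tables only. In the H2B-GFP tables Ndufs5 stayed under 1 FPKM while the copy named Ndufs5-ps held up to 32.7 FPKM, and in the total-cell tables Atp5l2-ps held up to 409 FPKM beside Atp5l. How reads were shared between such copies is not given in the sources used here, so the values of Ndufs5 and Atp5l are uncertain. Atp5f1 of the total-cell tables appears as Atp5pb in the others.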

How the data were processed

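RNA was measured in 40 libraries of HSCs and MPPs, which the labels sort into 12 groups. The 6 deposited tables hold FPKM per gene and library as computed by the authors, and the values show a median-of-ratios scaling within each table. STAR, DESeq2, HOMER and the build mm10 are named in the submitters' processing notes, with no versions. Whole reads were recovered from the FPKM steps (within 0.01 of a whole number) for 99.99% of genes and used for depth only. All 40 value columns were used. Cells were sorted into Trizol, and cDNA was made with SMART-Seq2 and Nextera XT, per the labels' protocols. Strand is not given in the sources used here.

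Groups were compared with limma (version 3.58.1, R 4.3.3), fitted to log2(FPKM + 1) with an intensity trend, 2-sided, within each table, over genes at 1 FPKM or more in at least 50% of libraries. A fold change on this scale understates the change of low genes. Benjamini-Hochberg adjustment covered all tested genes, and the threshold was 0.05. Tables were handled with Python 3.11.15, pandas 2.3.3 and numpy 2.4.6. Single values were compared by exact permutation of labels, whose smallest p is 0.0286 for 4 against 4 and 0.1 for 3 against 3. P-values measure the spread between these libraries, and every pair of replicates differed by more than sampling noise (lowest chi-square statistic divided by genes, 6.98). The fit was tested on simulated data, with shifts larger than any subunit difference reported here and independent noise per gene. That test does not show whether differences of the size seen here could be detected.

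Members and lists were chosen with earlier results of these data known. Genes were listed by a rule: the 3 smallest p values of each table, the 2 most abundant genes of each complex, the isoform sets, and the gene that moves most against each complex. Not all genes so listed are described, and only the most abundant of each complex was followed through all populations. Others named were chosen after their values were seen, such as genes whose groups did not overlap, or Ndufa12. Deviations of same-numbered KO and WT libraries correlated at -0.12 to 0.28, with the highest value in replicate 4 of total MPPs. These values do not settle whether a number marks a shared batch of KO and WT. Across H2B-GFP populations, same-numbered libraries of the same genotype deviated together in 3 of the 4 comparisons (correlations of 0.136 to 0.398). Alternatives were another pseudocount (0.1), no filter on low values, rescaling to the same FPKM total, no trend, array quality weights, the replicate block and leaving out each library.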

Additional observations from a re-analysis of the deposited data

Results flagged for a closer look

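Of 120 groups of 4 libraries examined for a library far from the others, 7 had such a library, where chance flags about 1 in 20 groups. The number given is the gap of that library to its nearest neighbour divided by the range of the group. In KO total HSCs it was 0.883 for Atp5b, where replicate 4 was low (221 FPKM), 0.855 for Atp5g1, where replicate 2 was high (71.1 FPKM), and 0.875 for Cox7a1, where replicate 1 was low (0.235 FPKM). In WT total HSCs it was 0.836 for Sdhb (78.3 FPKM), 0.945 for Sdhd (159 FPKM) and 0.831 for the median deviation of complex II, and in all 3 replicate 2 was the low library. In KO total MPPs it was 0.871 for Uqcrc1, where replicate 4 was high (92.5 FPKM). The H2B-GFP groups hold 3 libraries each and were not examined this way.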

How the results depend on the processing

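No subunit gene passed the test under any pseudocount, filter, scaling, trend or weighting tried, nor with the replicate block, which changed no call (0 subunit genes in each of the 6 tables and each of the 5 differences). The block joins same-numbered KO and WT libraries. It does not model a link between populations within a genotype. Of the counts and medians recomputed, 229 kept their direction and side of the threshold or stayed within the spread, and 2 moved: leaving out each library gave 0 to 1 subunit genes past the test in total MPPs and 0 to 1 in GFP-low MPPs (Ndufb3 without KO replicate 4, and Cox6b2 without KO replicate 1). The cause was not tested.

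Of the values of single genes, 724 kept their direction and side, 25 reversed, 9 lost and 1 gained a call. With quality weights the log2 difference was 0.0698 for Ndufa7 and -0.11 for Uqcrc1 in total MPPs and -0.0206 for Sdha in GFP-high MPPs, and with rescaling it was -0.0434 for Uqcrc1. Leaving out each library in turn gave ranges that cross 0. In total HSCs these were -0.18 to 0.0089 for Hira, -0.0125 to 0.14 for Sdhc and -0.14 to 0.14 for Cox7a1. In total MPPs they were -0.10 to 0.18 for Ndufa7, -0.0639 to 0.0294 for Sdha, -0.14 to 0.13 for Uqcrc1 and -0.24 to 0.12 for Cox7a1. In GFP-low HSCs they were -0.24 to 0.19 for Hira, -0.0683 to 0.0483 for Uqcrc2 and -0.11 to 0.0647 for Cox7c. In GFP-high HSCs it was -0.0379 to 0.11 for Sdhd, in GFP-high MPPs -0.0189 to 0.39 for Ndufa1 and -0.0884 to 0.0784 for Sdha, and in GFP-low MPPs -0.43 to 0.41 for Cox7a1. Rescaling turned the sign of 25 of 106 differences of the most abundant and isoform genes, and quality weights of 7.

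Medians over the subunit genes ranged from 0.20 to 0.37 in total MPPs and from 0.05 to 0.23 in GFP-low MPPs on leaving out a library, and crossed 0 in total HSCs (-0.06 to 0.13), GFP-low HSCs (-0.01 to 0.13) and GFP-high MPPs (-0.09 to 0.07). Depth limits the rarest genes: Cox7a1 rests on at most 33 reads per library in total MPPs.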
